A study of Oryza sativa with 12 samples.

Results

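The cultivar by cold interaction of long non-coding RNAs (lncRNAs) in rice (Oryza sativa) leaves was measured, that is, the cold effect in the cultivar Dongnong422 minus the cold effect in the cultivar Kongyu131. The members were the listed transcripts with a mean of at least 0.1 FPKM over the 12 libraries, 1441 of 1485, and they were tested again as 1036 of 1039 loci after the FPKM of all transcripts of a locus were summed. FPKM counts fragments relative to the length of a transcript and to how many fragments a library mapped. The groups were Kongyu131 control, Kongyu131 cold, Dongnong422 control and Dongnong422 cold, with 3 libraries each, all from leaves at the booting stage of plants grown outdoors. Cold-treated plants were kept, per the labels, for 13 days at 17 °C in an incubator (light for 16 h, dark for 8 h). The same protocol text is attached to the control libraries, so the place and temperature of the controls are not given separately. Temperature and incubator cannot be told apart, and an interaction is a difference in response to them together. No allele, transgene or treatment is given that all groups share, and a leaf per bucket was taken without a statement on how many plants a library holds. P-values therefore measure the spread between these libraries, which may be technical.

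Plant lncRNAs are transcribed like messenger RNAs but are not known to be translated. Long intergenic non-coding RNAs (lincRNAs) lie between protein-coding genes, and antisense lncRNAs run across another gene on its other strand, as the COOLAIR transcripts of Arabidopsis are at the flowering repressor gene FLC, where they are induced by cold. At the booting stage of rice, when the panicle develops inside the leaf sheath, cold is known to harm pollen formation. An interaction asks whether cold moved an RNA differently in the 2 cultivars, which is another question from whether it moved in either. The files pair no transcript with a gene name, a host gene, a position or a sequence, so the lncRNAs are given by identifier, and the leaf label could not be checked against marker genes.

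LNC_000712, the most abundant listed lncRNA, held 85.7% to 96.0% of the summed FPKM of each library. Depth is unknown because FPKM keeps no count. Bulk leaf RNA cannot tell fewer cells of a type from less RNA per cell. Fold changes and differences are on the log2(FPKM + 0.1) scale, which understates changes of low RNAs.

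Cold effects differed between the cultivars in both directions and with almost no net shift. The median difference (Dongnong422 minus Kongyu131) was within 0.01 of 0 on the log2 scale over 1441 transcripts and 0.03 over 1036 locus sums. At an unadjusted p under 0.05, limma gave 221 transcripts (15.3% of those tested), of which 118 were above 0 and 103 below. At a Benjamini-Hochberg adjusted p under 0.05, 6 transcripts were called (0.416%), 4 above 0 and 2 below. The same test on locus sums gave 191 loci at an unadjusted p under 0.05 (18.4%) and called 17 (1.64%), 9 above 0 and 8 below. With median-ratio scaling between libraries the split of loci called was 9 above and 4 below. The 6 called transcripts are each the sole transcript of their locus, and all 6 loci were among the 17. Of the 17, 15 held 1 transcript, so their values are the same at both levels and their adjusted p-values differ because fewer features were tested and their spreads were pooled over another set. The count of transcripts was 0 without Kongyu131 cold replicate 1 and without Dongnong422 control replicate 3, with 178 and 210 at an unadjusted p under 0.05. Leaving out Kongyu131 cold replicate 3 raised it to 14. It was 2 when Dongnong422 cold replicate 2 was left out, and 3 on omission of replicate 2 of Kongyu131 cold or of replicate 3 of Dongnong422 cold. The count of loci rose to 29 on omission of Kongyu131 cold replicate 3. Among Kongyu131 libraries it was 7 and 5 on omission of control replicates 1 and 3, and 5 and 6 on omission of cold replicates 1 and 2. Among Dongnong422 libraries it was 9 on omission of replicate 1 of either treatment and 10 on omission of cold replicate 2.

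Most of the differences that stood out came with cold effects of opposite sign. That was so for 147 of 221 transcripts at an unadjusted p under 0.05 (66.5%), for 14 of the 17 called loci, and for 37.0% of all transcripts tested and 34.4% of all loci tested. These counts include effects near 0. Opposite effects that were both at least 2-fold were found in 29 of the 221 transcripts (13.1%) and 8 of the 17 loci. Over all features tested these were 2.91% of transcripts and 2.90% of loci. A test of the difference favours effects of opposite sign, so these shares are a description. In 14 of the 17 called loci the cultivar with the higher mean changed between control and cold leaves, against 39.8% of all loci. In 7 of the 17 the cold libraries lay wholly on one side of the control libraries in Kongyu131 and wholly on the other side in Dongnong422, as in 18 of all 1036 loci (1.74%). The test of the difference favours both of these patterns too, so they are a description as well. Tested within each cultivar, cold was called at 124 loci in Kongyu131 (12% of those tested) and at 133 in Dongnong422 (12.8%). Of the 17 loci, 10 were called by cold in Dongnong422 alone, 5 in Kongyu131 alone and 2 in both.

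**Figure D1:**
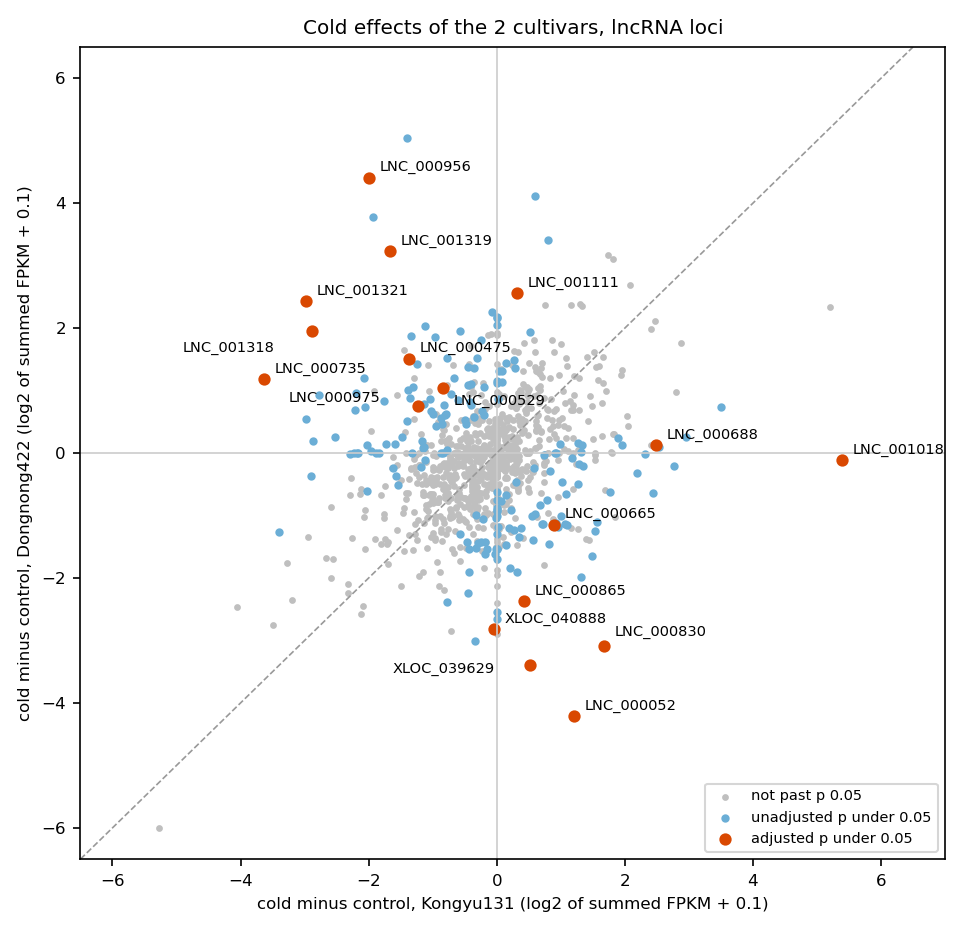
Cold minus control in Kongyu131 (x axis) and in Dongnong422 (y axis), both as log2 of summed FPKM + 0.1, for 1036 lncRNA loci. Blue points are the loci at an unadjusted p under 0.05 for the difference that were not called, orange points are the 17 called loci, labelled by their transcript where they hold 1, and the dashed line marks equal effects. The called loci lie in the upper left and lower right or near an axis.

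The spread between libraries limited the size of difference that could be called. The median standard error of the difference was 0.679 on the log2 scale for transcripts and 0.545 for locus sums. It was 0.874 for the 552 transcripts with a mean of 0.1 to 0.5 FPKM, of which 11.4% had an unadjusted p under 0.05, and 0.509 for the 336 with a mean of 1 to 3 FPKM, of which 21.7% did. For the 223 with a mean of 3 FPKM or more it was 0.526, and 18.4% had an unadjusted p under 0.05. The smallest difference called was 1.99 for transcripts and 1.88 for loci. Only 49 transcripts (3.40%) and 96 loci (9.27%) had a 95% interval of the difference that lay wholly within 1 on the log2 scale either way, so for most lncRNAs a 2-fold difference between the cultivars was neither shown nor bounded. Of the transcripts tested, 73 were listed at 0 in all 6 Kongyu131 libraries and 43 in all 6 Dongnong422 libraries. For these the difference is the cold effect of the other cultivar alone, and 16 and 9 of them were among the 221. Their libraries at 0 add no spread to the estimate shared by all groups, which can make p-values too small.

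Among the loci that stood out, most lincRNA loci had a difference above 0 and most antisense loci one below 0. Of the 9 called lincRNA loci, 8 had a difference above 0, that is, moved up in Dongnong422 relative to Kongyu131. Of these 8, 3 are LNC_001318, LNC_001319 and LNC_001321, from a run of consecutively numbered loci in which LNC_001320 was not called. Their highest libraries in Kongyu131 control and Dongnong422 cold were the same, and without positions separate RNAs and pieces of 1 transcript cannot be told apart. Of the 8 called antisense loci, 7 had a difference below 0. At an unadjusted p under 0.05 the same split was 74 above and 41 below for 115 lincRNA loci (64.3% above) and 25 above and 49 below for 74 antisense loci (33.8% above). Over all loci tested it was much weaker, with 54.1% of 604 lincRNA loci and 47.0% of 419 antisense loci above 0 and median differences of 0.12 and −0.05. Over 23 alternative settings and left-out libraries, the share above 0 at an unadjusted p under 0.05 ran from 56.5% to 70.1% for lincRNA loci and from 21.7% to 42.1% for antisense loci. Over all loci tested it ran from 50.8% to 58.4% for lincRNA loci and from 43.0% to 54.7% for antisense loci. The antisense median turned above 0 without Kongyu131 control replicate 3 (0.07), on omission of Dongnong422 cold replicate 2 (0.04), and when Kongyu131 cold replicate 3 and Dongnong422 cold replicate 2 were left out together (0.10). Loci share libraries and are not independent replicates, the split was noticed in these data, and it was not tested.

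**Figure D2:**
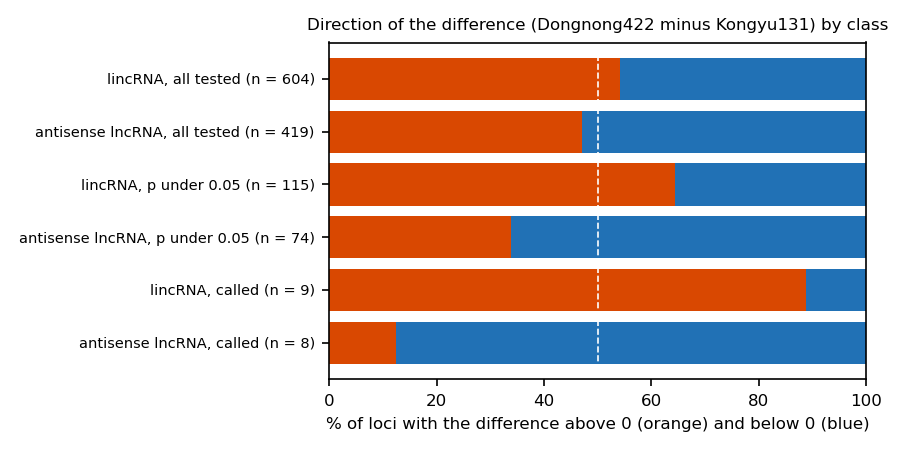
Percentage of lncRNA loci whose difference of cold effects (Dongnong422 minus Kongyu131) was above 0 (orange) or below 0 (blue), by class, for all loci tested, those at an unadjusted p under 0.05 and those called. The 13 loci that hold transcripts of both classes are left out. Above 0 were 8 of 9 called lincRNA loci and 1 of 8 called antisense loci.

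Several lncRNAs were lower in cold Kongyu131 leaves and higher in cold Dongnong422 leaves. The lincRNA LNC_000475 (XLOC_018030) had the smallest p of all. It stood at 3.58, 2.82 and 5.10 FPKM in control leaves of Kongyu131 and at 1.23, 1.17 and 1.83 in its cold leaves. Dongnong422 had 1.89, 2.00 and 1.38 FPKM in control and 5.31, 4.65 and 5.49 in cold libraries. No group overlapped its control in either cultivar, and Kongyu131 was the higher cultivar in control and Dongnong422 in cold leaves. The cold effects were −1.37 and 1.51 on the log2 scale (adjusted p = 0.0140 and 0.0101), and their difference was 2.88 (SE 0.379, limma adjusted p = 0.0118), with a 95% interval of 2.04 to 3.71. The lincRNA LNC_000975 (XLOC_035698) had the same pattern at lower size, with 1.67, 1.50 and 1.40 FPKM in control and 0.533, 0.538 and 0.700 in cold Kongyu131 libraries and 1.23, 1.45 and 1.03 FPKM in control and 1.86, 2.04 and 2.58 in cold leaves of Dongnong422. It fell in Kongyu131 by 1.24 and rose in Dongnong422 by 0.76 (adjusted p = 0.0101 and 0.0443), a difference of 1.99 (SE 0.306, limma adjusted p = 0.0156). These 2 loci were the ones called by cold in both cultivars.

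A fall in Kongyu131 alone was called for the lincRNA LNC_000735 (XLOC_027944), with 1.38, 0.738 and 1.44 FPKM in control leaves and 0 listed in its 3 cold libraries. In Dongnong422 it was at 0.576, 0.900 and 0.311 FPKM in control and 2.43, 1.77 and 0.587 in cold libraries, where the groups overlap because of cold replicate 3. Its fall in Kongyu131 passed the test (adjusted p = 0.00310), the change of 1.18 in Dongnong422 did not (0.134), and the difference was 4.82 (SE 0.685, limma adjusted p = 0.0120). Since a group is at 0, the size of that difference depends on the pseudocount and was 1.76 with 1 FPKM and 8.15 with 0.01 FPKM, called in both. That group also adds no spread to the estimate that all groups share, so the p-values of LNC_000735 can be too small. LNC_000529 (XLOC_020078), the 1 antisense lncRNA called with a difference above 0, had its called change in the other cultivar. Its rise in Dongnong422 passed (log2 change 1.04, adjusted p = 0.0343) and its change of −0.84 in Kongyu131 did not (0.0637). It stood at 2.81, 1.75 and 2.14 FPKM in control and 1.23, 1.16 and 1.14 in cold Kongyu131 libraries, and at 0.824, 0.374 and 0.486 FPKM in control and 1.26, 1.09 and 1.26 in cold leaves of Dongnong422. Cold leaves of the cultivars were thus at nearly the same level, 1.18 ± 0.0457 FPKM and 1.21 ± 0.101 FPKM (SD, n = 3 each), from control levels of 2.23 ± 0.539 FPKM and 0.561 ± 0.235 FPKM. The difference was 1.88 (SE 0.381, limma adjusted p = 0.0372). Its call ended without any of 9 of the 12 libraries, with adjusted p-values up to 0.0963.

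A run of 4 lincRNAs of consecutively numbered loci, LNC_001318, LNC_001319, LNC_001320 and LNC_001321 of XLOC_052268 to XLOC_052271, had lower means in cold Kongyu131 and higher means in cold Dongnong422 leaves. No source used here says whether the numbers reflect positions on a chromosome. The group of 4 was put together after its values were seen. LNC_001318 stood at 0.531, 0.838 and 2.99 FPKM in control and 0.0402, 0.124 and 0.0439 in cold Kongyu131 libraries, and at 0.186, 0.774 and 0.0357 FPKM in control and 0.867, 2.03 and 0.854 in cold leaves of Dongnong422. LNC_001319 stood at 0.192, 0.296 and 0.607 FPKM in control and 0, 0 and 0.159 in cold leaves of Kongyu131 and at 0, 0.0602 and 0 FPKM in control and 0.375, 2.95 and 0.814 in cold leaves of Dongnong422. LNC_001321 stood at 1.17, 1.61 and 2.28 FPKM in control and 0, 0.151 and 0.326 in cold leaves of Kongyu131 and at 0, 0.785 and 0 FPKM in control and 0.630, 2.06 and 0.782 in cold leaves of Dongnong422. In each of these, Kongyu131 control replicate 3 and Dongnong422 cold replicate 2 were the highest libraries of their groups, and so they were for LNC_001320. The differences of cold effects of the locus sums were 4.84 (SE 1.01, limma adjusted p = 0.0424), 4.89 (SE 0.933, limma adjusted p = 0.0320) and 5.40 (SE 1.17, limma adjusted p = 0.0481) in the same order. LNC_001320 was not called, with a difference of 3.17 (SE 1.13, limma adjusted p = 0.169). It stood at 0.282, 1.81 and 2.37 FPKM in control and 0, 0.407 and 0.266 in cold leaves of Kongyu131 and 0.113, 0.208 and 0.163 FPKM in control and 0.344, 1.01 and 0.163 in cold leaves of Dongnong422. Within a cultivar, LNC_001318 and LNC_001321 fell in Kongyu131 (adjusted p = 0.0315 and 0.0439) and LNC_001319 rose in Dongnong422 (0.0136). These calls ended when some single libraries were left out. Over the 12 omissions, that of LNC_001318 was kept in 1 case, that of LNC_001321 in 2 cases and that of LNC_001319 in 6, with adjusted p-values up to 0.138, 0.146 and 0.0963. As single transcripts none of the 4 was called (adjusted p from 0.0516 to 0.221). At the locus level, sizes and calls also depended on the pseudocount. With 1 FPKM the differences of LNC_001318, LNC_001319 and LNC_001321 were 1.82, 1.44 and 1.97 (limma adjusted p = 0.0799, 0.0966 and 0.0348). Of these, only LNC_001321 was then called.

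A pair of lincRNAs rose in cold Dongnong422 leaves without a called change in Kongyu131. LNC_001111 (XLOC_042844) had 0.597, 0.658 and 0.554 FPKM in control and 0.470, 0.847 and 1.15 in cold leaves of Kongyu131 and 0.549, 0.670 and 0.891 in Dongnong422 control libraries, and stood at 4.60, 5.66 and 3.67 FPKM in Dongnong422 cold libraries. All 3 cold Dongnong422 libraries were above every other library. Its cold effects were 0.32 and 2.56 (adjusted p = 0.566 and 0.00142), a difference of 2.24 (SE 0.431, limma adjusted p = 0.0320), and without single libraries the adjusted p rose to at most 0.0944, with the call kept in 3 of 12 cases. LNC_000956 (XLOC_035220) had the largest difference called with the pseudocount of 0.1 FPKM, 6.40 (SE 1.16, limma adjusted p = 0.0240). It stood at 0, 0.166 and 0 FPKM in control and 2.90, 8.53 and 0.888 in cold Dongnong422 libraries, and at 2.41, 1.72 and 3.40 FPKM in control and 0.271, 0.263 and 1.79 in cold leaves of Kongyu131. The Dongnong422 cold libraries are far apart, cold replicate 3 of Kongyu131 overlaps its controls, and the call was kept in 5 of 12 cases when a library was left out.

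In the other direction, a pair of antisense lncRNAs rose in cold Kongyu131 leaves, while their cold and control libraries overlapped in Dongnong422. LNC_001018 (XLOC_038036) went from 1.94, 0.809 and 0.166 FPKM to 45.6, 24.4 and 32.3 FPKM in Kongyu131, while Dongnong422 held 0.428, 1.84 and 0.833 FPKM in control and 0.743, 0.932 and 0.767 in cold libraries. The 9 libraries outside Kongyu131 cold were all under 2 FPKM. The cold effect was 5.39 in Kongyu131 (adjusted p = 0.00310) and −0.11 in Dongnong422 (0.972), and the difference was −5.50 (SE 0.930, limma adjusted p = 0.0156). It lost its call without Kongyu131 cold replicate 1 (adjusted p = 0.0542) and without Kongyu131 cold replicate 3 and Dongnong422 cold replicate 2 together (0.0580). LNC_000688 (XLOC_025675) repeated this pattern at a lower level, with 0.163, 0.305 and 0.315 FPKM in control and 1.40, 2.53 and 1.85 in cold Kongyu131 libraries, and 0.298, 0.275 and 0.219 FPKM in control and 0.193, 0.264 and 0.482 in cold leaves of Dongnong422. Only the 3 cold Kongyu131 libraries exceeded 0.5 FPKM. Its rise in Kongyu131 was 2.48 (adjusted p = 0.00310), and the difference of −2.36 (SE 0.464, limma adjusted p = 0.0348) was kept in 3 of 12 cases when a library was left out.

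The remaining 6 called loci fell in cold Dongnong422 leaves. The antisense lncRNA LNC_000052 (XLOC_003075) stood at 2.71, 1.33 and 2.98 FPKM in control and 0, 0 and 0.0978 in cold Dongnong422 libraries, against 1.18, 1.19 and 0.134 FPKM in control and 1.13, 1.25 and 2.73 in cold leaves of Kongyu131. It fell in Dongnong422 (adjusted p = 0.00481), and its groups overlap in Kongyu131, where control replicate 3 is the lowest library. Its difference was −5.41 (SE 0.911, limma adjusted p = 0.0156). The antisense locus XLOC_040888, a sum of LNC_001077 and LNC_001078, was at nearly equal levels in 3 groups, 1.50 ± 0.157 FPKM, 1.48 ± 0.343 FPKM and 1.29 ± 0.0494 FPKM in Kongyu131 control, Kongyu131 cold and Dongnong422 control leaves, and at 0.116 ± 0.115 FPKM in Dongnong422 cold leaves (SD, n = 3 each). Its cold libraries in Dongnong422 were at 0.248, 0.0564 and 0.0425 FPKM, and each of the other 9 libraries was above 1 FPKM. The cold effect was −2.81 in Dongnong422 (adjusted p = 0.00142) and −0.04 in Kongyu131 (1.00), a difference of −2.77 (SE 0.459, limma adjusted p = 0.0156). Neither transcript of it was called on its own. LNC_001077 had a difference of −2.35 (SE 0.531, limma adjusted p = 0.0683) and LNC_001078 one of −2.19 (SE 0.968, limma adjusted p = 0.305), so the locus was found by the sum.

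The antisense lncRNA LNC_000865 (XLOC_032393) fell from 1.61, 0.753 and 0.914 FPKM to 0.207, 0.0705 and 0.107 FPKM in Dongnong422 (adjusted p = 0.0101). Its levels were 0.240, 0.661 and 0.150 FPKM in control and 0.425, 0.495 and 0.398 in cold leaves of Kongyu131, with a difference of −2.79 (SE 0.604, limma adjusted p = 0.0481). The antisense lncRNA LNC_000665 (XLOC_024781) fell in Dongnong422 from 0.948, 0.657 and 1.03 to 0.354, 0.322 and 0.333 FPKM (adjusted p = 0.0323), and its Kongyu131 libraries were at 0.406, 0.840 and 0.606 FPKM in control and 0.954, 1.64 and 1.08 in cold leaves (0.0665). Its groups did not overlap in either cultivar and lay on opposite sides of their controls. The difference was −2.04 (SE 0.412, limma adjusted p = 0.0372). The lincRNA LNC_000830 (XLOC_031095), the 1 lincRNA called with a difference below 0, stood at 1.98, 1.32 and 1.64 FPKM in control and 0, 0.742 and 0 in cold leaves of Dongnong422 and at 0.305, 0.771 and 0.256 FPKM in control and 0.955, 1.64 and 2.10 in cold leaves of Kongyu131. Its fall in Dongnong422 passed the test (adjusted p = 0.0243), the change in Kongyu131 did not (0.157), and the difference was −4.76 (SE 1.02, limma adjusted p = 0.0481). The calls of LNC_000865, LNC_000665 and LNC_000830 were kept in 1, 3 and 2 of 12 cases when a library was left out, with adjusted p-values up to 0.146, 0.0982 and 0.120.

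**Figure D3:**
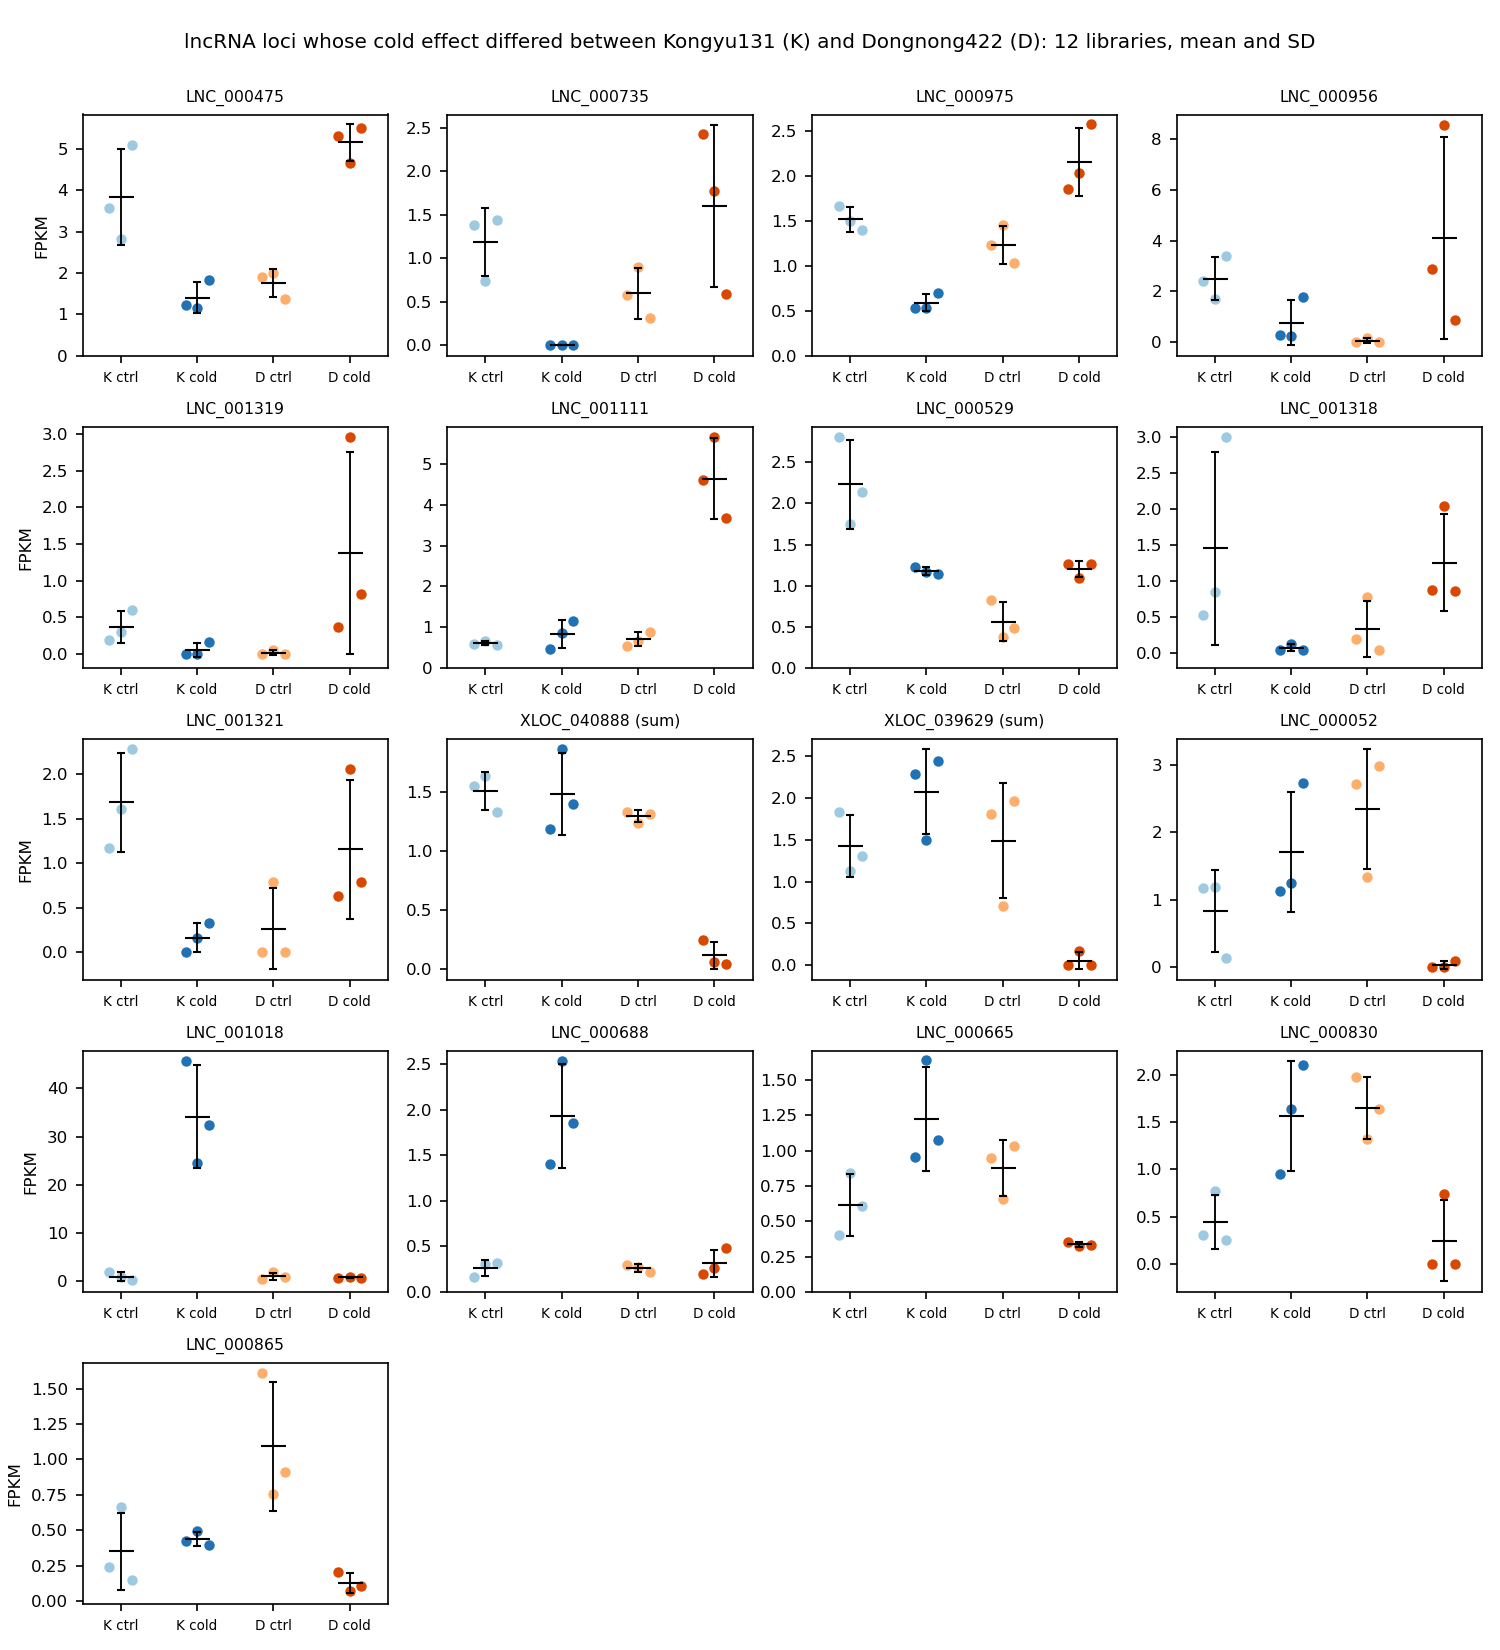
FPKM in each of the 12 libraries (points) with the mean and SD of each group (black) for the 17 called loci, on linear axes of different height. K is Kongyu131, D is Dongnong422 and ctrl is control; the 2 loci with several transcripts are shown as sums. LNC_000475 and LNC_000975 are lower in cold in K and higher in cold in D, LNC_001018 and LNC_000688 stand out in K cold alone, and XLOC_040888 is low in D cold alone.

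The loci differed in how far their calls rested on single libraries. Those of LNC_000475, LNC_000735, LNC_000975 and LNC_000052 were kept at the locus level in all 12 cases when a library was left out, with adjusted p-values up to 0.0472, 0.0472, 0.0472 and 0.0479. As transcripts, the same 4 kept their calls in 10, 9, 2 and 5 of 12 cases, with limma adjusted p-values up to 0.0629, 0.0629, 0.103 and 0.0943. That of LNC_001018 was kept in 11 cases at the locus level and in 4 as a transcript. The transcript call of LNC_000956 was kept in 2. At the locus level the others were as follows. Those of XLOC_040888 and XLOC_039629 were kept in 10, and both ended without Kongyu131 control replicate 3 (adjusted p = 0.0559 each), the former also without Kongyu131 cold replicate 2 (0.0521) and the latter without Kongyu131 cold replicate 1 (0.0542). The other 10 were kept in 1 to 6 cases. For all 17, the direction was the same in every one of these fits.

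**Figure D4:**
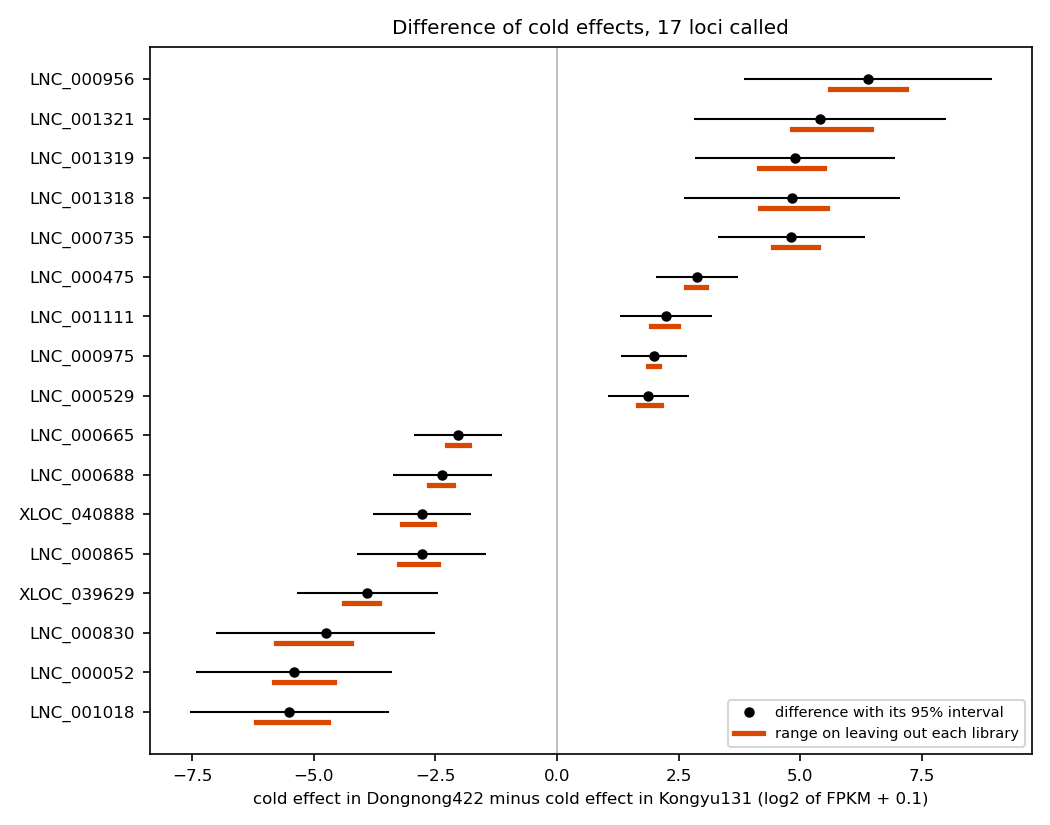
Difference of cold effects (Dongnong422 minus Kongyu131, log2 of FPKM + 0.1) of the 17 called loci, with the 95% interval (black line) and the range of the difference when each of the 12 libraries was left out in turn (orange line). All ranges lie on the side of 0 of their point. The points run from −5.50 for LNC_001018 to 6.40 for LNC_000956.

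Where a locus has several transcripts, the interaction can sit in the locus as a whole or in the division among its transcripts. Of 67 transcripts at an unadjusted p under 0.05 that have other listed transcripts at their locus, 58 had a locus sum of the same sign and 26 a locus sum that also reached an unadjusted p under 0.05. Each sum includes the transcript itself, so a shared sign is partly fixed in advance. These counts therefore do not tell where the interaction sits. Compared among the transcripts of a locus with limma's diffSplice F test, 23 of 203 loci reached an unadjusted p under 0.05 (11.3%) and 4 were called (1.97%). The sum was called at 1 of these 4. FPKM of overlapping transcripts are estimates of how fragments divide among them, and a value at or near 0 can be a failed estimate.

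XLOC_019310 was called for its division and not for its sum. Its antisense transcript LNC_000499 stood at 0.000129, 0.000104 and 1.87e-05 FPKM in Dongnong422 control libraries and at 0.347, 2.10 and 0.704 in cold leaves, while LNC_000498 stood at 1.11, 1.55 and 2.39 FPKM in control and 0.815, 0.000385 and 0.905 in cold leaves of Dongnong422. Summed over both transcripts, Dongnong422 had 1.68 ± 0.648 FPKM in control leaves and 1.62 ± 0.468 FPKM in cold leaves (SD, n = 3 each). In Kongyu131, LNC_000498 carried most of the locus in both treatments, at 1.52, 1.32 and 0.714 FPKM in control and 1.27, 1.24 and 1.54 in cold libraries. LNC_000499 stood at 0.000157, 0.404 and 1.6e-05 FPKM in control and 0.0153, 0.000151 and 0.000292 in cold leaves of Kongyu131. Its Kongyu131 control replicate 2 was thus above its Dongnong422 cold replicate 1. The transcripts differed with an adjusted p of 0.0299 (limma diffSplice), and the difference of the sum was −0.14 (SE 0.512, limma adjusted p = 0.895). On transcripts, cold was called at 7.29% of those tested in Kongyu131 and 4.86% in Dongnong422, and the rise of LNC_000499 in Dongnong422 was among them (adjusted p = 0.0295). Neither transcript was called for its own difference, 3.92 for LNC_000499 and −2.15 for LNC_000498 (limma adjusted p = 0.0980 and 0.347).

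XLOC_039629, with 3 antisense transcripts, was called both for its sum and for its division. The sum stood at 1.83, 1.12 and 1.31 FPKM in control and 2.28, 1.50 and 2.44 in cold Kongyu131 libraries, and at 1.80, 0.704 and 1.96 FPKM in control and 6.09e-06, 0.174 and 3.88e-06 in cold leaves of Dongnong422, where it fell by 3.39 on the log2 scale (adjusted p = 0.00286). The difference was −3.90 (SE 0.656, limma adjusted p = 0.0156). The transcript with the highest mean was LNC_001049 in control and LNC_001050 in cold Kongyu131 leaves, and LNC_001048 in both treatments of Dongnong422. In Kongyu131, LNC_001049 fell from 1.06, 1.12 and 1.31 to 0.287, 0.328 and 0.610 FPKM and LNC_001050 rose from 0.216, 1.68e-05 and 2.85e-05 to 1.07, 1.17 and 1.01 FPKM (adjusted p = 0.0415 and 0.0158). In Dongnong422 the third transcript, LNC_001048, carried the locus, at 1.80, 0.543 and 1.96 FPKM in control and 6.09e-06, 0.174 and 3.88e-06 in cold libraries. LNC_001049 was under 0.001 FPKM in all 6 Dongnong422 libraries, and LNC_001050 reached 0.160 FPKM in control replicate 2. The difference of LNC_001049 is therefore its cold effect in Kongyu131 with the sign turned. Libraries near 0 add almost no spread to the estimate that all groups share. The p-values of LNC_001049 and of the division can thus be too small. LNC_001048 was also listed in Kongyu131, at 0.559, 4.77e-15 and 2e-10 FPKM in control and 0.923, 1.44e-05 and 0.813 in cold libraries. Its change of 1.27 there was not called (limma adjusted p = 0.509), nor was its fall in Dongnong422 as a transcript (0.0741). The transcripts differed among themselves with an adjusted p of 0.0299.

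In XLOC_025447, with 6 listed antisense transcripts of which 5 were tested, LNC_000681 had a difference that exceeded that of the rest by 5.56 on the log2 scale, a size that depends on the pseudocount. It was at 0.555, 0.506 and 0.150 FPKM in control and 0.000766, 0.243 and 0.00102 in cold Kongyu131 libraries, while Dongnong422 had 8.4e-16, 0.000297 and 3.46e-05 FPKM in control libraries and 0.539, 0.292 and 0.454 in cold leaves. The other tested transcripts had differences below 0, the farthest from 0 being −2.85 for LNC_000679, and the transcripts differed among themselves with an adjusted p of 0.0150. The sum was not called, with a difference of −0.52 (SE 0.376, limma adjusted p = 0.487). XLOC_053929 had the smallest p of the 4 loci (adjusted p = 0.00622), but its 3 lincRNAs were listed at 0 in all 6 Kongyu131 libraries, so the contrast there is the cold effect in Dongnong422. Those 6 libraries add no spread to the estimate that all groups share, so the p-values of this locus can be too small. In Dongnong422 LNC_001381 went from 2.04, 1.91 and 2.32 to 0.336, 0.0601 and 0.264 FPKM (log2 change −2.89, adjusted p = 0.00322). LNC_001382 and LNC_001383 had log2 changes of −0.58 and −0.50 (adjusted p = 0.200 and 0.306). The count of 4 was 1 without Kongyu131 control replicate 2, Kongyu131 cold replicate 1, or Dongnong422 control replicate 1 or 3, and 10 without Kongyu131 control replicate 1.

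**Figure D5:**
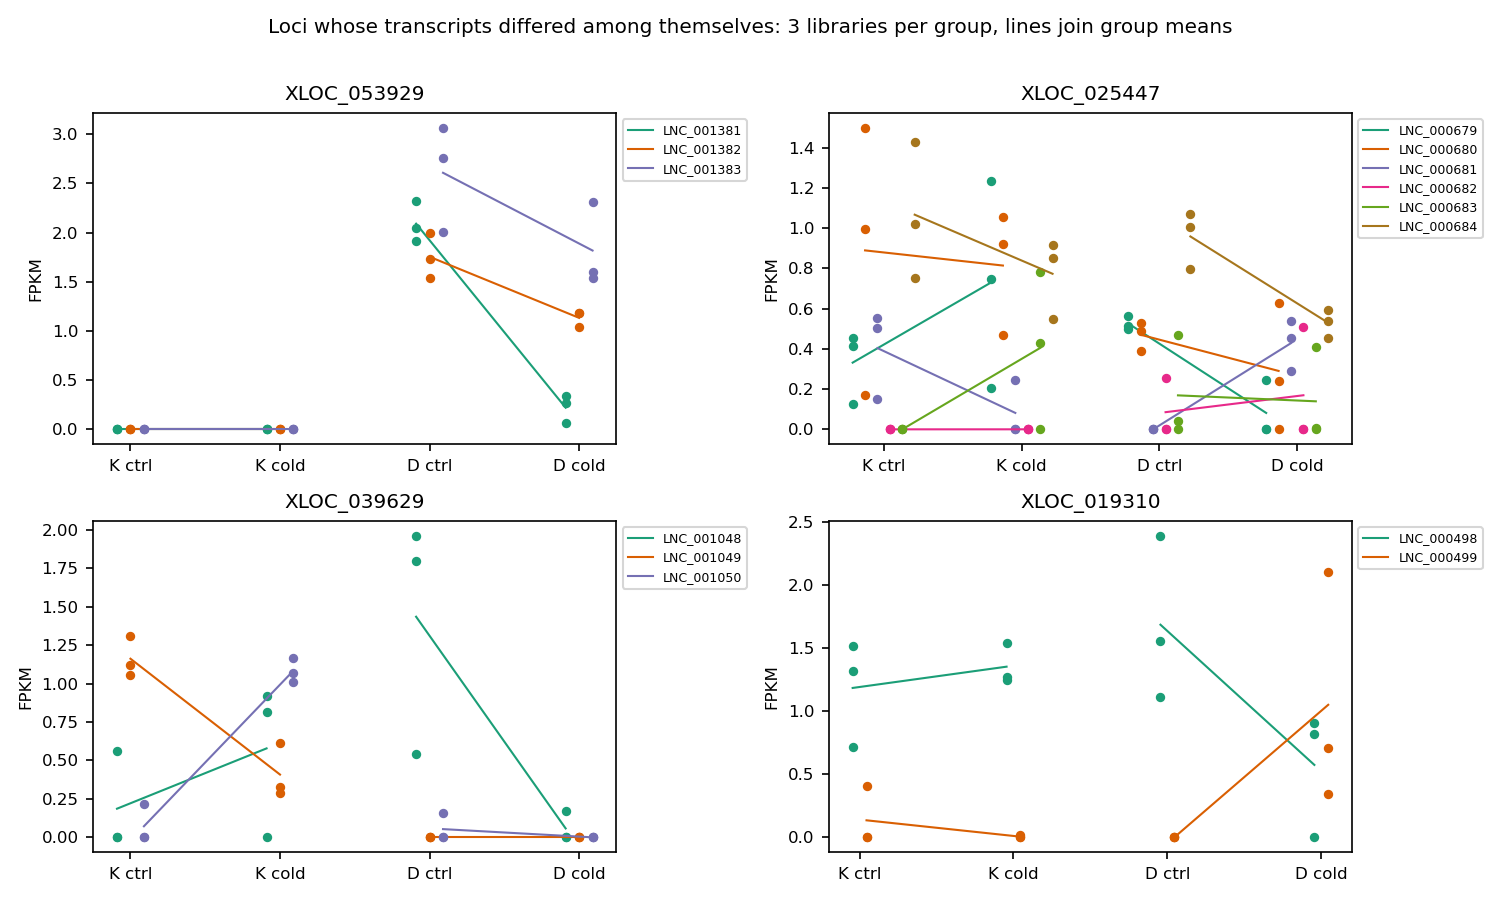
FPKM of each transcript (colour) in the 12 libraries (points) for the 4 loci whose transcripts differed among themselves in the difference of cold effects. Of XLOC_025447, LNC_000682 lay below the limit on low values and was not tested. Lines join the means of control and cold leaves within Kongyu131 (K) and within Dongnong422 (D). In XLOC_019310 LNC_000499 is higher and LNC_000498 lower in D cold than in D control, and LNC_000499 also appears in K control replicate 2. In XLOC_039629 LNC_001049 and LNC_001050 cross in K.

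Just short of a call on transcripts were 8 further lncRNAs, the 4 with the smallest p in each direction among those with a mean of at least 1 FPKM in a group. Of these, 5, LNC_001319, LNC_001111, LNC_001318, LNC_000688 and LNC_000665, are sole transcripts and were called at the locus level above. The other 3 belong to loci with several transcripts. The antisense LNC_000203 (XLOC_010057) stood at 2.93, 2.45 and 3.55 FPKM in control and 1.51, 2.23 and 1.45 in cold Kongyu131 libraries, and at 2.52, 2.14 and 2.38 FPKM in control and 3.78, 4.59 and 5.02 in cold leaves of Dongnong422. Its groups were apart in both cultivars in opposite directions, with cold effects of −0.76 and 0.89 (adjusted p = 0.0865 and 0.0608) and a difference of 1.65 (SE 0.347, limma adjusted p = 0.0579). The antisense LNC_000574 (XLOC_022039) fell in Dongnong422 from 5.80, 5.68 and 4.45 to 1.55, 1.13 and 1.41 FPKM (adjusted p = 0.00213) and was at 6.61, 8.33 and 5.49 FPKM in control and 4.95, 6.07 and 5.45 in cold leaves of Kongyu131, a difference of −1.60 (SE 0.333, limma adjusted p = 0.0579). LNC_001381, described above, had a difference of −2.89 (SE 0.556, limma adjusted p = 0.0516).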

How the data were processed

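Strand-specific RNA sequencing libraries from ribosomal RNA-depleted leaf RNA came from a directional NEBNext Ultra kit, per the labels' protocols. TopHat2 2.0.9 and Cufflinks 2.1.1 were used, per the submitters' processing notes, which give neither order nor settings. No source used here names the genome build, the annotation or the lncRNA classification. Deposited by the authors was 1 table of FPKM per library, with the same 1485 transcripts of 1039 loci in each. Of the identifiers, 0 matched the RefSeq gene table, and no sequence was available to print.

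From the deposited FPKM, log2(FPKM + 0.1) was fitted with limma 3.58.1 in R 4.3.3 on all 12 libraries (4 group means, empirical Bayes with a mean-variance trend, p-values adjusted by Benjamini-Hochberg over all transcripts, or all loci, with a mean of at least 0.1 FPKM). The transcripts next to this limit were LNC_001214 (mean 0.0985 FPKM, left out, difference −1.84) and LNC_000043 (mean 0.100 FPKM, kept, difference 0.08). Transcripts of a locus were compared with diffSplice without a trend. Features with a two-sided adjusted p under 0.05 were called. FPKM keeps no counts, so no count model was used and no counting interval can be given. The procedure was run on simulated data with planted differences. These had independent normal values per transcript on the log2 scale, no floor at 0 FPKM and no deviation shared within a library. They therefore do not show how the procedure behaves on the real data. Named were all called features (loci: the 8 with the smallest p in each direction, LNC_001321 added after its values were seen, as was LNC_001320) and the 4 next transcripts in each direction that reach a mean of 1 FPKM in a group. Members, lists and rules were chosen with earlier results of these data known. Alternatives were other pseudocounts, filters, scalings, variance settings, library weights, the replicate number as a block and leaving out each library.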

Additional observations from a re-analysis of the deposited data

Results flagged for a closer look

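These lncRNAs stand out because their cold effects were unequal in the cultivars by limma's test of the difference (Dongnong422 minus Kongyu131, log2 scale, adjusted p under 0.05). Among transcripts the differences above 0 were those of LNC_000475 (2.88), LNC_000735 (4.82), LNC_000975 (1.99) and LNC_000956 (6.40), and those below 0 were those of LNC_001018 (−5.50) and LNC_000052 (−5.41).

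Among locus sums the differences above 0 were those of XLOC_018030 (2.88), XLOC_027944 (4.82), XLOC_035698 (1.99), XLOC_035220 (6.40), XLOC_052269 (4.89), XLOC_042844 (2.24), XLOC_020078 (1.88), XLOC_052268 (4.84) and XLOC_052271 (5.40). The differences below 0 were those of XLOC_040888 (−2.77), XLOC_039629 (−3.90), XLOC_003075 (−5.41), XLOC_038036 (−5.50), XLOC_025675 (−2.36), XLOC_024781 (−2.04), XLOC_031095 (−4.76) and XLOC_032393 (−2.79). Groups of 3 libraries are too small to test a single library as an outlier.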

How the results depend on the processing

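Counts of called transcripts, 6 as reported, were 16 and 3 with pseudocounts of 1 and 0.01 FPKM, 12 with quantile normalization, 17 with library weights, 2 with the replicate number as a block, and 0 to 14 when each library was left out. Called loci, 17 as reported, were 8 with a pseudocount of 0.01 FPKM, 9 with a mean of at least 1 FPKM, 10 with quantile normalization, 31 with library weights, 11 without Kongyu131 cold replicate 3 and Dongnong422 cold replicate 2 together (an alternative chosen after the data were seen), and 5 to 29 when each library was left out. Loci called among their transcripts, 4 as reported, were 2 with a pseudocount of 0.01 FPKM, 9 with library weights, and 1 to 10 when each library was left out. With a mean of at least 1 FPKM there was 1, which is not among the 4. The cause of these moves was not tested, except that the filters change how many features are tested. With the replicate block, 15 of the 17 loci were kept and 16 called. Deviations from the group means correlated by −0.11 to 0.08 for same-numbered libraries and by −0.12 to 0.11 for others. These values give no sign that numbers pair the libraries, but with groups of 3 they cannot exclude it. Without 1 library, 5 to 14 of the 17 loci were kept. For Kongyu131 the number was 7 and 5 on omission of control replicates 1 and 3, and 5 and 6 on omission of cold replicates 1 and 2. For Dongnong422 it was 8 on omission of control replicate 1, control replicate 3 or cold replicate 1. Kept with library weights were 16, with median-ratio scaling 11 and with upper-quartile scaling 13. No named difference changed sign in any setting except that of the sum of XLOC_019310, which was −0.14 and ran from −0.39 to 0.22 over left-out libraries. It was 0.22 on omission of control replicate 3 of Kongyu131, 0.13 on omission of control replicate 3 of Dongnong422 and 0.07 on omission of cold replicate 1 of Dongnong422. Over the named differences in all settings, 926 values kept their direction and side of the threshold, 192 lost their call and 46 gained one. Without a variance trend the comparison within loci is as reported, since it uses none. Upper-quartile scaling moved the median difference of all transcripts from −0.0043 to −0.10, and the other scalings by less. Depth is unknown, so differences of lncRNAs at low FPKM cannot be bounded by counting error.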
